A study of Mus musculus with 12 samples.

Results

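Mouse livers were compared between the sexes for the mature microRNAs that lie in or beside imprinted genes other than the Dlk1-Dio3 domain. These are both arms of miR-335 (host gene Mest), both arms of miR-296 and miR-298-5p (the Gnas locus), both arms of miR-483 (Igf2) and both arms of miR-675 (H19). They were taken by name from the deposited table of mature microRNA counts and are 9 of its 1906 names, from 5 hairpins at 4 loci. The series holds small RNA libraries from whole livers of 6 male and 6 female mice, all 8 weeks old and of the outbred stock Crl:CD1(ICR), with 1 library per liver and no treatment. The labels number the libraries of each sex and say nothing of litter, housing or preparation batch, so a p-value here reflects how much these livers vary. The library codes run on from the males to the females, so any effect of that order could not be told apart from sex.

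Imprinted genes are transcribed mainly from the copy inherited from a single parent, set by DNA methylation marks placed in the egg or sperm, and many of them act on fetal growth. Mest and Igf2 are expressed from the paternal copy and H19 from the maternal copy, while the microRNAs of the Gnas locus have been assigned to the paternally expressed antisense transcript Nespas. Igf2 and H19 are strongly expressed in fetal liver and are shut down in mouse liver after birth. A hairpin precursor is cut into a 5p and a 3p arm, and either arm can be loaded as the mature microRNA, whose bases 2 to 8, the seed, pair with target transcripts.

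The mature sequences of the 5 names with the most counts are shown from RefSeq (GRCm38.p6) with the seed in capitals. The names in the table carry the mouse prefix, as mmu-miR-335-5p, mmu-miR-335-3p, mmu-miR-296-5p, mmu-miR-296-3p, mmu-miR-298-5p, mmu-miR-483-5p, mmu-miR-483-3p, mmu-miR-675-5p and mmu-miR-675-3p, which is left out below. All 9 names matched a RefSeq entry of the length given in the table.
miR-335-5p: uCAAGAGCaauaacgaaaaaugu
miR-335-3p: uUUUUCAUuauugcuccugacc
miR-296-5p: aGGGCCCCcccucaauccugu
miR-296-3p: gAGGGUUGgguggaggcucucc
miR-298-5p: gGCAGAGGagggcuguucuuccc
The 9 names had 9 distinct seeds, and 0 other names among the 1679 mature microRNAs of that RefSeq table shared any of them. The deposited table holds 1906 names, so some of those were not searched for these seeds. The arms of miR-335 were poor in G and C, at 30.4% for 5p and 36.4% for 3p. The other 7 ranged between 54.5% and 68.2%.

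The hairpins of miR-335 and miR-296 are shown because their arms were read in different proportions, with both mature arms in capitals.
Mir335: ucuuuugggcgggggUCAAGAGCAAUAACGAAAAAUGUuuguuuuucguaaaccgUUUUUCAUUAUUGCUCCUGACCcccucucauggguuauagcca
Mir296: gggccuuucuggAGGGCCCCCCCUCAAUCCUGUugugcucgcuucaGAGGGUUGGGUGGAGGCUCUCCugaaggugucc
In the deposited coordinates (mm9), miR-335-5p lies on chromosome 6 at 30691314 to 30691336 and miR-335-3p at 30691354 to 30691375. GENCODE M21, an annotation of the later build GRCm38 used here only for host genes, places the hairpin inside 7 transcripts of Mest on the same strand and in an exon of 0 of them, so it is intronic. On mm9 chromosome 2, miR-296-3p lies at 174092559 to 174092580, miR-296-5p at 174092594 to 174092614 and miR-298-5p at 174093054 to 174093076, with 439 bases between the last 2. The hairpins of miR-296 and miR-298 overlap no annotated gene besides their own entries in GENCODE M21. The nearest gene is Nespas on the same strand, with 14111 and 13651 bases between it and the hairpins, so this annotation does not join them to Nespas. On mm9 chromosome 7, miR-675-3p (149762983 to 149763004) and miR-675-5p (149763017 to 149763038) come from H19, with the hairpin in an exon of 3 of the 4 transcripts that span it. miR-483-3p (149840837 to 149840857) and miR-483-5p (149840873 to 149840894) lie 77.8 kb away, in an intron of the 7 spanning transcripts of Igf2. Each of the 9 names stands at 1 locus, and none overlaps another name in the table, so their counts were not shared with a copy or an antisense partner listed there.

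Library totals lay between 2953955 and 5516430 microRNA counts. miR-122-5p, the microRNA that defines hepatocytes, took 28.7% to 37.9% of the counts of each library. The level allowed by 3 counts, used as a floor, was 0.544 CPM in the deepest library and 1.02 CPM in the shallowest, where CPM stands for counts adjusted to equal library sizes. Floors and intervals here cover counting error only, since the reads carry no molecular identifiers described in the labels. The comparison of the sexes used edgeR's quasi-likelihood test over the 419 names that passed a filter on low counts, with Benjamini-Hochberg adjustment, and fold changes are male over female. At an adjusted p under 0.05, 71 names (16.9%) were called, of which 35 (8.35%) had higher levels in males and 36 (8.59%) in females. Of the calls, 49.3% were higher in males when libraries were scaled with TMM, edgeR's trimmed mean method, and 31.0% with total counts alone. Under total counts the median log2 fold change over every tested name was -0.12, where TMM gave -0.02.

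The 9 names fell into 3 levels of abundance. miR-335 was moderately abundant, with 4054 counts of 5p and 3950 of 3p over the 12 livers, and ranked 158 and 160 by mean CPM among the 419 tested names. The Gnas-locus microRNAs were rare, with 219 counts of miR-296-5p, 55 of miR-296-3p and 56 of miR-298-5p. Those of Igf2 and H19 were close to absent, with 10 counts of miR-483-3p, 4 of miR-483-5p, 5 of miR-675-3p and 0 of miR-675-5p. The filter asked for at least 2.5 CPM in 6 livers, and 3 of the 9 names passed it. Both arms of miR-335 reached that level in all 12 livers. miR-296-5p reached it in 2 of 6 males and 6 of 6 females and so entered the test through the female livers. The number of calls among the names that passed is for that reason no evidence about the group, although all 3 were called higher in females.

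miR-335 was lower in males on both arms. It is processed from an intron of Mest, a gene of mesodermal tissues and expanding fat, and was found raised in liver and fat of obese mice. miR-335-5p had 113, 443, 211, 251, 277 and 155 raw counts in males 1 to 6 and 517, 354, 475, 305, 302 and 651 in females 1 to 6. Scaled for depth, its level was 60.8 ± 18.2 CPM in the 6 males and 102 ± 18.6 CPM in the 6 females (mean ± SD). The sexes overlapped through male 2, whose 91.2 CPM lay above female 4 (78.7 CPM) and female 5 (87.6 CPM), while the remaining 5 males, at 36.6 to 68.4 CPM, lay below every female. The log2 fold change was -0.75 ± 0.19 (standard error; edgeR, adjusted p = 0.0196), or 1.68-fold higher in females.

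miR-335-3p had 142, 446, 204, 210, 231 and 132 raw counts in males 1 to 6 and 478, 356, 491, 418, 342 and 500 in females 1 to 6. Its level was 57.3 ± 17.4 CPM in the 6 males and 104 ± 12.1 CPM in the 6 females (mean ± SD). Male 2 was again the exception at 91.8 CPM, above female 6 at 88.3 CPM, and the other males lay between 45.6 and 57.1 CPM. The log2 fold change was -0.85 ± 0.17 (standard error; edgeR, adjusted p = 0.00344), or 1.81-fold higher in females. Without male 2 the log2 fold changes were -0.91 for 5p and -1.05 for 3p. In the authors' deposited table, which tests all 2044 loci without this filter, miR-335-3p had an FDR of 0.00415 and miR-335-5p an FDR of 0.0516, on the other side of the same threshold. With scaling by total counts alone the log2 fold changes of 5p and 3p were -0.87 and -0.97, beside the median of -0.12 over all names under that scaling.

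**Figure D1:**
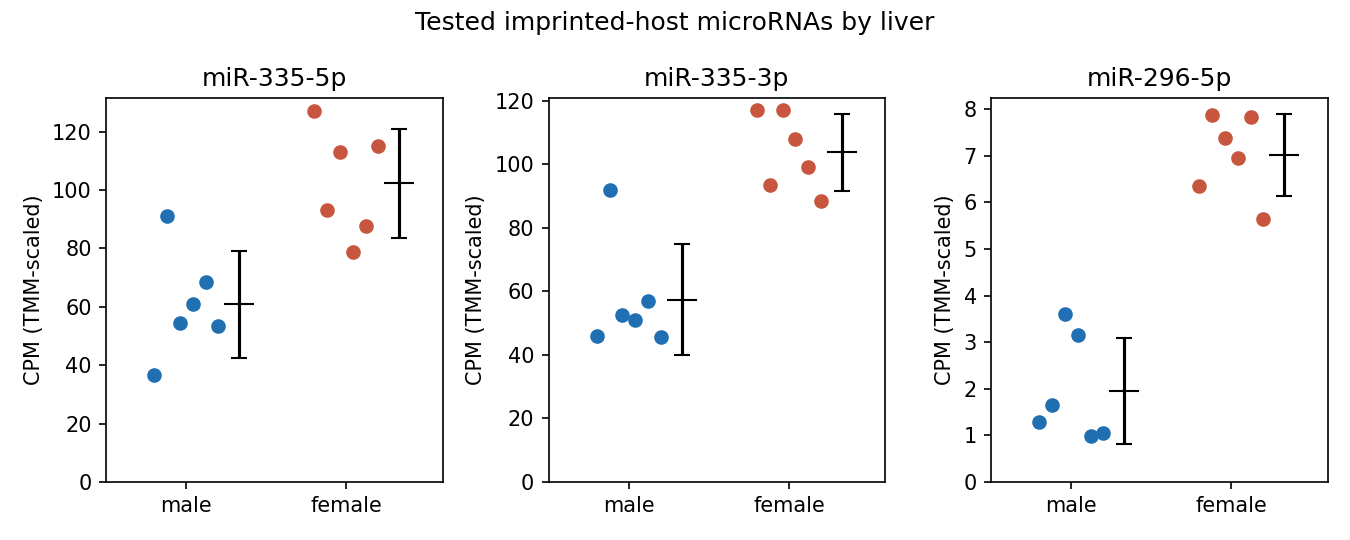
Levels of miR-335-5p, miR-335-3p and miR-296-5p in CPM scaled by TMM; each point is 1 liver, and the bar beside each sex is the mean ± SD over 6 livers. Male 2 reaches the female range for both arms of miR-335 (91.2 and 91.8 CPM), and no male reaches the lowest female, 5.65 CPM, for miR-296-5p.

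The arms of miR-335 were recovered in near-equal numbers in both sexes. Summed over livers, the ratio of 5p to 3p counts was 1.06 in males and 1.01 in females. Per liver, the log2 ratio lay between -0.33 and 0.26 in males (mean 0.08 ± 0.23, SD, n = 6) and between -0.45 and 0.38 in females (mean -0.03 ± 0.28, SD, n = 6). The difference of 0.11 was not detectable in an exact permutation test of the livers, two-sided (p = 0.481, also 0.481 adjusted over the 2 ratios compared), and its 95% interval was -0.22 to 0.43. As log2 CPM, across the 6 males the levels of the arms had Pearson's r = 0.85 (exact permutation p = 0.0333, adjusted over 4 relations p = 0.133) and Spearman's rho = 0.89 (exact permutation p = 0.0333, adjusted p = 0.133). Without the 2 males farthest from the median, r was 0.79. Across the 6 females r was 0.23 (exact permutation p = 0.65, adjusted p = 0.867) and rho 0.20 (exact permutation p = 0.714, adjusted p = 0.952), and r was 0.17 without the 2 farthest. No relation passed the adjustment, and whether r differed between the sexes was not tested.

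**Figure D2:**
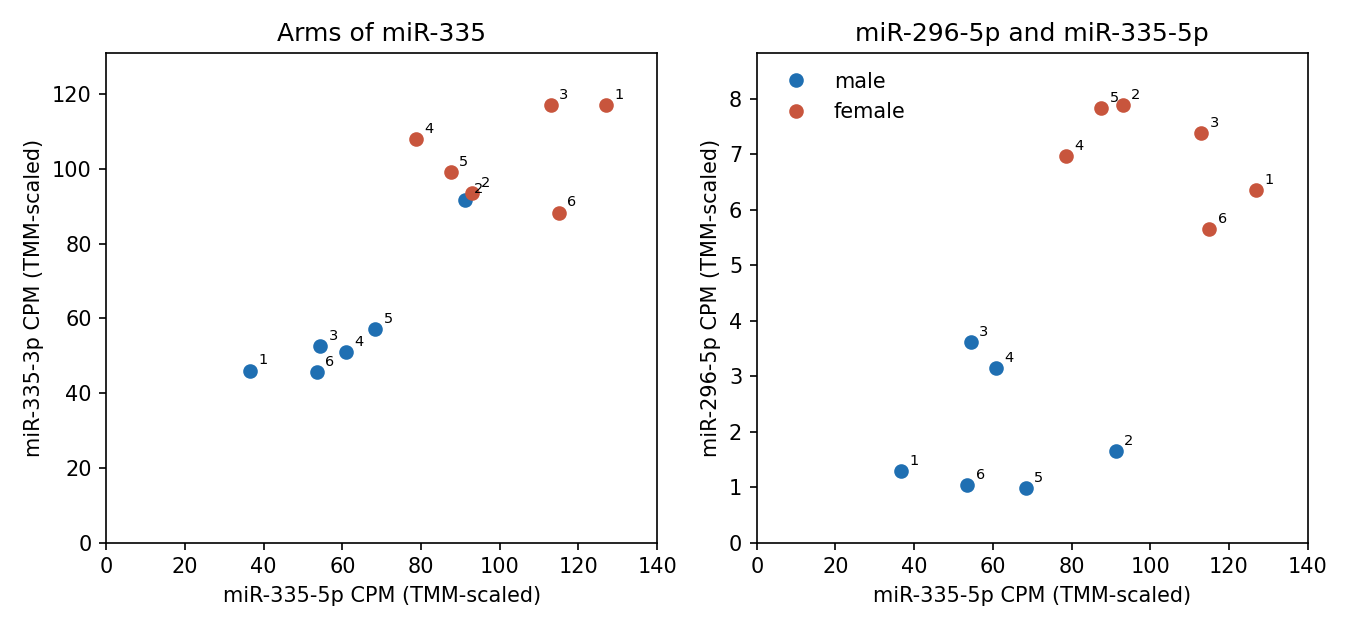
Left, miR-335-3p against miR-335-5p; right, miR-296-5p against miR-335-5p, all in CPM scaled by TMM, with 1 point per liver labelled by its number. On the left male 2 lies among the females, at 91.2 and 91.8 CPM; on the right it lies with the males, at 1.65 CPM of miR-296-5p.

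miR-296-5p was lower in males in every liver and had the largest fold change of the 36 names called higher in females. It comes from the Gnas locus, whose main product is the alpha subunit of the stimulatory G protein that couples glucagon and adrenergic receptors to cAMP; the microRNA itself is known from endothelial cells responding to angiogenic factors. Its raw counts were 4, 8, 14, 13, 4 and 3 in males 1 to 6 and 26, 30, 31, 27, 27 and 32 in females 1 to 6. The level was 1.95 ± 1.14 CPM in the 6 males and 7.01 ± 0.876 CPM in the 6 females (mean ± SD), and the highest male, male 3 at 3.61 CPM, was below the lowest female, female 6 at 5.65 CPM. Such a gap with females higher was found in 3.58% of the tested names. The log2 fold change was -1.80 ± 0.29 (standard error; edgeR, adjusted p = 0.000974), or 3.47-fold higher in females. The authors' deposited table gave -1.75 with an FDR of 1.45e-06.

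Within the males miR-296-5p varied, with males 3 and 4 at 3.61 and 3.15 CPM and the remaining 4 between 0.988 and 1.65 CPM, whereas the females spanned 5.65 to 7.88 CPM. Male 2, the male with the most miR-335, had 1.65 CPM of miR-296-5p. Within a sex, miR-335-5p and miR-296-5p showed no detectable relation: r was 0.04 in males (exact permutation p = 0.903, adjusted p = 0.903) and -0.57 in females (exact permutation p = 0.247, adjusted p = 0.494). Spearman's rho was 0.03 in males (exact permutation p = 1, adjusted p = 1) and -0.54 in females (exact permutation p = 0.297, adjusted p = 0.594). Without the 2 livers of each sex farthest from the median, r was -0.31 in males, the opposite sign, and -0.74 in females. The log2 ratio of miR-296-5p to miR-335-5p averaged -4.98 ± 0.85 in the 6 males and -3.83 ± 0.40 in the 6 females (SD). The difference of -1.14 had a 95% interval of -2.03 to -0.31 (exact two-sided permutation test, p = 0.0216, adjusted over 2 ratios p = 0.0433). This call was lost when any of 8 of the 12 livers was left out, males 1, 2, 5 and 6 and females 2, 3, 4 and 5, where the adjusted p lay between 0.0519 and 0.0779. Males 1, 5 and 6 had only 3 or 4 counts of miR-296-5p. Because miR-296-5p passed the filter through the female livers, the test of this ratio is no separate evidence of a difference between the sexes.

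**Figure D3:**
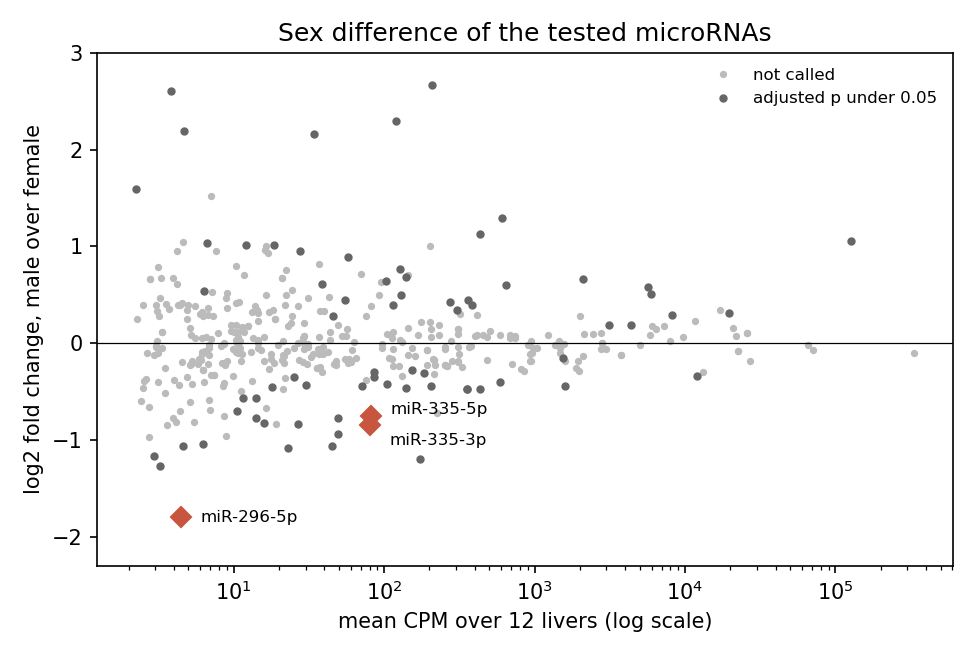
The log2 fold change, male over female, against mean CPM on a log axis for the 419 tested names, with names at an adjusted p under 0.05 in dark grey and the 3 tested imprinted-host microRNAs as diamonds. miR-296-5p, at -1.80 and with 3 to 14 raw counts per male liver, is the lowest point of all, and the arms of miR-335 lie together at -0.75 and -0.85.

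miR-298-5p, known in neuronal cells as a repressor of the beta-secretase Bace1, comes from the hairpin next to miR-296 and was too rare for the filter. Its raw counts were 2, 2, 0, 3, 1 and 3 in males 1 to 6 and 8, 10, 6, 7, 6 and 8 in females 1 to 6. Every male library had at most 3 counts and every female library at least 6. Such a separation with females higher was found in 1.32% of the 1292 names with any count and in 3.58% of the 419 tested names. The larger set holds names with too few counts to show it. Summed over livers this was 11 counts in males and 45 in females, or 0.459 CPM (95% Poisson interval 0.229 to 0.821) and 1.87 CPM (1.36 to 2.5), intervals that take no account of the spread between livers. With no filter, when 1.47% of the 1292 names were called higher in females, miR-298-5p had a log2 fold change of -1.79 and an adjusted p of 0.0279 (edgeR). The authors' deposited table gave -1.80 with an FDR of 0.0166. Since males lay at or under the floor, the size of this difference is uncertain.

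miR-296-3p, the opposite arm of miR-296, had 4, 5, 4, 2, 2 and 0 raw counts in males 1 to 6 and 6, 4, 11, 2, 7 and 8 in females 1 to 6. The sexes overlapped, and with no filter the log2 fold change was -0.97 with an adjusted p of 0.395 (edgeR), which did not pass; the authors' deposited table gave an FDR of 0.563. The sums were 17 counts in males and 38 in females, or 0.709 CPM (95% Poisson interval 0.413 to 1.14) and 1.58 CPM (1.11 to 2.16). The 5p arm dominated, with 2.71 counts of 5p per count of 3p in males and 4.55 in females, against near equality for miR-335. At these counts a difference in arm use between the sexes was not tested. Recovery of an arm also depends on how well its ends are ligated in library preparation, so the ratio of 2 arms is a ratio of reads.

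miR-483, known for acting on survival and fat-storage genes from within Igf2, had 0 counts of either arm in all 6 males. In females 1 to 6, miR-483-3p had 3, 1, 0, 0, 1 and 5 counts and miR-483-5p 1, 2, 1, 0, 0 and 0. By the floor of 3 counts, the male zero allows up to 0.125 CPM over the 6 libraries. The 95% Poisson interval of the male zero reaches 0.154 CPM. The 10 counts of miR-483-3p in females correspond to 0.415 CPM (95% Poisson interval 0.199 to 0.762). With no filter, neither arm passed (edgeR, adjusted p = 0.0868 for 3p and 0.288 for 5p), and both are too rare to compare. miR-675, which in mouse placenta represses the growth factor receptor Igf1r, had 1 count of 3p in males, in male 4, and 4 in females, with 2 in female 4 and 1 each in females 5 and 6. miR-675-5p was not seen in any of 48087382 counts, which allows up to 0.0624 CPM over all livers. Neither arm of miR-675 can be compared at this depth.

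**Figure D4:**
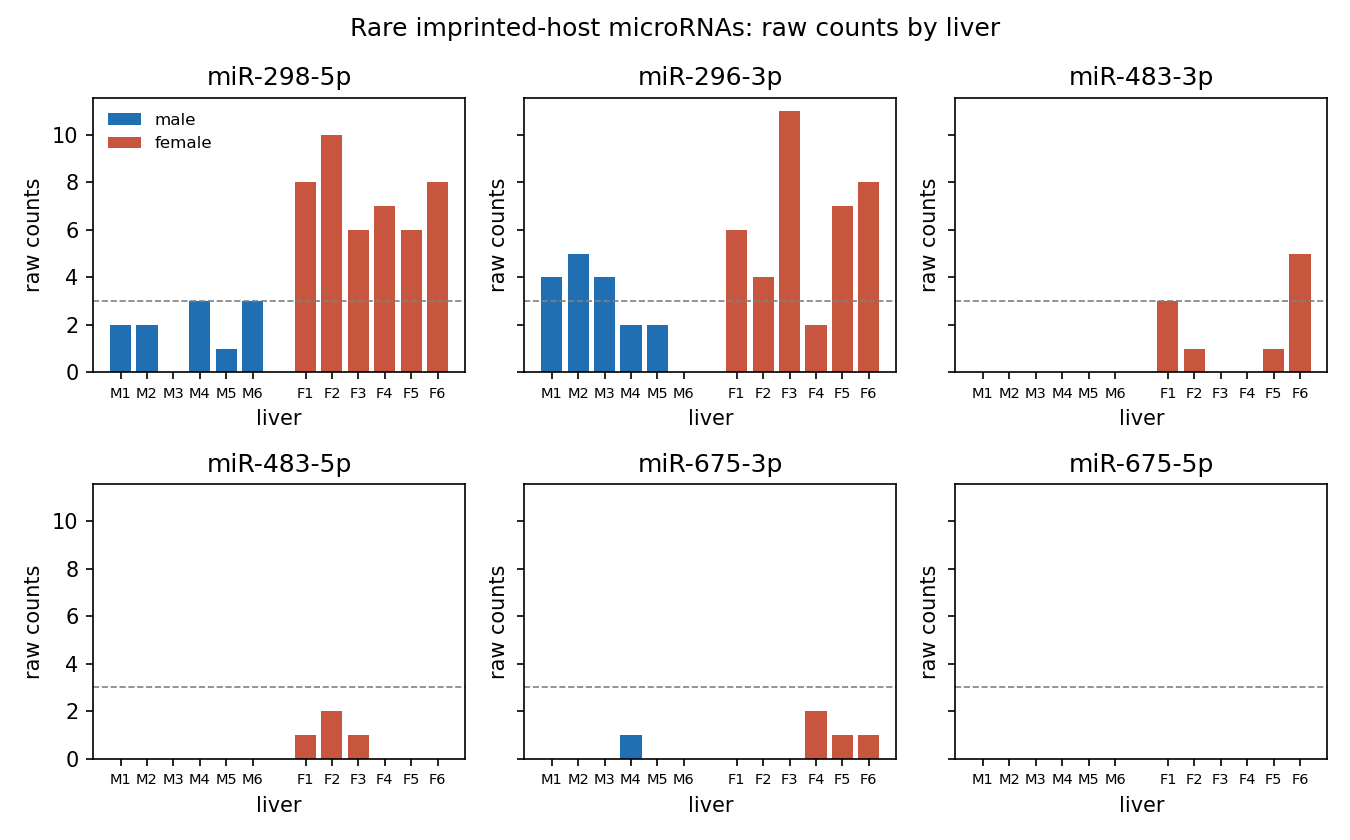
Raw counts per liver of the 6 names that did not pass the filter, males M1 to M6 left of females F1 to F6; the dashed line marks the floor of 3 counts. miR-298-5p has 0 to 3 counts in males and 6 to 10 in females, miR-483 is at 0 in every male, and miR-675-5p is at 0 in all 12 livers.

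The names with the most similar profile over the 12 livers were sought by the root mean square difference of log2 CPM, each centred on its own mean. For miR-335-5p, whose own root mean square deviation was 0.51, these were miR-335-3p, miR-142a-5p and miR-181a-1-3p, each at 0.24. For miR-335-3p they were miR-802-3p (0.23), miR-674-3p (0.24) and miR-335-5p (0.24), with 3 further names within 0.05 of the last. For miR-296-5p, whose own deviation was 0.96, they were miR-6238 (0.51), miR-802-3p (0.57) and miR-802-5p (0.57), with 4 further names within 0.05 of the last. All lay farther away than those of miR-335. But miR-296-5p had 3 to 32 counts per library and miR-335-5p 113 to 651, and the share of counting error in these distances was not tested. A profile over livers of 2 sexes also carries the difference between the sexes, and its share in these distances was not tested.

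Among markers of other liver cells, 1 stellate and 1 immune name were called higher in females, where 8.59% of all tested names were. In whole tissue, fewer cells of a type and less of a microRNA per cell cannot be told apart. The summed level of 6 markers of stellate cells, fibroblasts and smooth muscle lay between 10385 and 16187 CPM in males and between 14940 and 17917 CPM in females. 1 of these 6 was called, miR-143-3p, at a mean of 10610 CPM in males and 13392 CPM in females, with a log2 fold change of -0.34 (edgeR, adjusted p = 0.0263). The list's median was -0.14, and the log2 fold changes of miR-145a-5p (0.07) and miR-199a-5p (0.08) had the opposite sign. The call of miR-143-3p was lost without male 2, 3 or 5, without female 1 or 2, and with no filter. The 5 immune markers summed to between 500 and 986 CPM in males and between 799 and 1098 CPM in females, with 1 called, miR-142a-5p (-0.47, edgeR, adjusted p = 0.0257), and a median of -0.17. That call was lost without male 3 or 6, without female 1 or 6, and with no filter. Male 2, the male with the most miR-335, had the highest immune sum among males, 986 CPM, and also their highest hepatocyte sum, 498617 CPM. Its endothelial sum, 28889 CPM, was the highest and its erythroid sum, 909 CPM, the lowest of all 12 livers, while its stellate sum of 12512 CPM lay within the range of the other males. Of the 2 endothelial markers 0 were called by edgeR, DESeq2 or limma, and 0 passed an unadjusted p of 0.05, with sums of 21226 to 28889 CPM in males and 24154 to 27328 CPM in females. With scaling by total counts alone, 1 of the 2 endothelial, 1 of the 5 hepatocyte and 1 of the 4 erythroid markers were called higher in females. Under that scaling 58 of the 419 tested names were called higher in females. All markers of these lists were detected, and their part in the differences of miR-335 and miR-296-5p was not tested.

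Of the 2 other imprinted clusters, 1 held a call. Over all 419 tested names edgeR called 16.9% in either direction. In the Dlk1-Dio3 cluster, whose microRNAs come from the maternal copy, 43 of 112 names were tested, 0 were called in either direction by edgeR, DESeq2 or limma (2, 3 and 1 at an unadjusted p under 0.05), and the median log2 fold change was 0.25, with summed levels between 449 and 2488 CPM in males and between 707 and 1282 CPM in females. Without male 2, 1 name of this cluster was called higher in males, and without male 6, 1 was called higher in females and the median was -0.05, of the opposite sign. In the intron cluster of Sfmbt2, a paternally expressed gene, 6 of 70 names were tested and 1 was called higher in females, with a median of -0.79, beside 8.59% called higher in females over all tested names. That count was 2 without male 1, without female 5 or with total counts alone, and 0 without male 2, 3, 4 or 6, without female 2 or 6, and with no filter. Total counts alone gave 58 calls higher in females among the 419 tested names. The remaining imprinted-locus names, miR-184 of the Rasgrf1 region, the miR-344 family of the Prader-Willi region and miR-298-3p, numbered 22, held 125 counts in all, and none was abundant enough to test. The difference between these groups and the microRNAs of Mest and the Gnas locus was not tested.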

How the data were processed

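Per the labels' protocols, Trizol-extracted liver RNA was made into libraries with the NEBNext small RNA kit. Tools listed in the submitters' processing notes are edgeR, bedtools, Bowtie2 and Trim Galore, with mm9 as the build. The notes used here give no versions or settings and do not say whether reads were counted by strand. Some pairs of names had equal values, such as miR-374b-5p and miR-374c-3p (both log2 fold change -0.47, mean 354 CPM, edgeR, adjusted p = 0.000768). The same held for miR-126a-3p and miR-126b-5p (both -0.08, 22633 CPM). Library totals and calls over all names can therefore hold the same reads under both names of a pair. Whether counts of the imprinted-host microRNAs include reads of the opposite strand was not tested. The deposited table holds raw counts per mature microRNA locus, made by the authors and not normalized. Per the file headers it also holds the authors' edgeR comparison: log2 fold change of male over female, mean log2 CPM, p-value and FDR; these were only set beside the results computed here, and 0 other value columns per liver were left unused.

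Loci of one name were summed. Counts were filtered with filterByExpr, scaled by TMM and compared with edgeR 4.0.16 in R 4.3.3 (glmQLFit and glmQLFTest, no covariate, Benjamini-Hochberg over all 419 names, threshold 0.05). Log2 CPM used a prior count of 2, and ratios used 0.5 count added to each count. The fit was tested on simulated data. Ratios and correlations used exact two-sided permutation tests, and intervals of ratios came from inverting that test. Alternatives were limma 3.58.1 (voom), DESeq2 1.42.0, other scalings and filters, thinned libraries, a replicate block and leaving out each liver. The 9 names, the lists and the tests were chosen with earlier results of these data known. Named are all 9, the 3 names most like each tested one, and markers that were called. The Dlk1-Dio3 list runs by position between miR-770 and miR-410.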

Additional observations from a re-analysis of the deposited data

Results flagged for a closer look

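Of 38 groups of 6 livers looked at (levels of the 9 names, 2 ratios, library totals and sums of marker lists), 8 held a liver far from the other 5, where chance gives about 1 in 20. Among the imprinted-host microRNAs, miR-335-3p stood at 91.8 CPM in male 2, with the next male at 57.1 CPM. The flag of miR-675-3p in male 4, 0.243 CPM against 0 in the other males, rests on 1 count. The summed stellate, fibroblast and smooth muscle markers stood at 17917 CPM in female 1, against 15958 CPM in the next female.

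Male 4 had the highest sums of striated muscle markers (130 CPM, next male 21.1), pancreas markers (50.9 CPM, next male 8.15) and neuron markers (26.9 CPM, next male 4.38). Female 3 stood apart in pancreas markers (22.6 CPM, next female 6.83) and female 4 in neuron markers (22.4 CPM, next female 3.09). Without male 4 the log2 fold changes of miR-335-5p, miR-335-3p and miR-296-5p were -0.75, -0.82 and -1.99.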

How the results depend on the processing

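Both arms of miR-335 and miR-296-5p were lower in males under every alternative in which they were tested. Of these names, miR-335-3p and miR-296-5p passed the threshold under all of those alternatives. In the main fit miR-296-5p had passed the filter through the female livers, and with no filter its adjusted p was 0.000546 (edgeR). Leaving out each liver in turn, the log2 fold change of miR-335-5p lay between -0.91 and -0.65, with an adjusted p of at most 0.0477, that of miR-335-3p between -1.05 and -0.79, and that of miR-296-5p between -2.06 and -1.66. miR-296-5p was not tested where a mean of at least 10 CPM was required. With the replicate number as a block, miR-335-5p had a log2 fold change of -0.78 and an adjusted p of 0.0682, the log2 ratio of miR-296-5p to miR-335-5p differed by -1.14 with an adjusted p of 0.125, and 48 names were called in all; miR-335-3p and miR-296-5p passed with the block, and no other name was examined singly with it. Same-numbered livers had correlations of their deviations between -0.127 and 0.302, and 0 of 6 males correlated best with the female of the same number. The labels give the number no meaning, and whether same-numbered livers shared a litter or batch was not tested. The count of calls over all names lay between 47, without male 3, and 82 when each liver was left out, with 71 in all livers. The ratio of miR-296-5p to miR-335-5p differed by -1.37 to -0.95 and the arm ratio of miR-335 by 0.02 to 0.19 over the same omissions. The correlation of miR-335-5p with miR-296-5p in males was -0.15 with scaling by total counts alone and -0.31 without 2 livers, against 0.04. Among marker lists, the hepatocyte median was -0.19 with total counts alone, the pancreas median -0.23 with no filter and between -0.25 and 1.75 over omitted livers, and the striated muscle median between -0.63 and 1.06; both lowest values came without male 4. The causes were not tested. Depth limits the Gnas, Igf2 and H19 names most: at 0 to 11 counts per library, differences in miR-296-3p, miR-483 and miR-675 were not detectable.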
